A study of Mus musculus with 24 samples.

Results

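Acetylation of histone H3 at lysine 27 (H3K27ac), which marks promoters and enhancers in use, was examined in mouse liver over 10 genes that lengthen fatty acids or put double bonds into them. The genes were 5 elongases (Elovl1, Elovl2, Elovl3, Elovl5 and Elovl6), 2 stearoyl-CoA desaturases (Scd1 and Scd2) and 3 genes of the fatty acid desaturase cluster (Fads1, Fads2 and Fads3). They were chosen by name, and each was given a window of its gene body plus 10 kb on each side (mm9). All 10 were found among 22350 protein-coding genes of the autosomes and X, and their windows held 109 of the 119348 regions obtained by joining overlapping peaks of all lists. The mice came from 2 inbred strains, C57BL/6J (called B6) and the wild-derived CAST/EiJ (called CAST). Both sexes were used, all were 8 weeks old, and the labels name no treatment or further allele. Each of the 4 groups had 5 livers and 1 input control, and reads of a group's livers had been merged before peaks were called, which gave 4 lists. A group is therefore represented by 1 value, with no spread between livers, no SD and no test, and a list cannot show how far single livers differ. The strain field of the labels contradicted the titles for 5 of 5 livers labelled B6 female and 5 of 5 labelled CAST male. It did so for the input controls of these groups as well. The titles were followed. Lists of the same titled strain shared 64.3% (B6) and 63.7% (CAST) of their covered bases, against 54.1% to 60.1% between strains.

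Liver makes palmitate and then adapts it. Elongases add carbons to an acyl-CoA in the endoplasmic reticulum, each with its own preference for chain length and saturation, and partner enzymes complete the cycle. Stearoyl-CoA desaturases make monounsaturated fatty acids such as oleate, while the FADS enzymes insert the double bonds that turn dietary linoleic and linolenic acid into long polyunsaturated fatty acids. Several of these genes are known targets of the insulin and sterol regulator SREBP-1c and of the liver X receptor, and Elovl3 is known for male-biased expression in mouse liver.

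Where 4 values are given in a row, they stand for the male and female lists of B6 and then the male and female lists of CAST. The windows held 93, 92, 96 and 97 peaks, of 79818, 82176, 90228 and 84645 on these chromosomes. The bases covered were 79424, 77965, 85278 and 72736 in the same order, out of 500.2 kb of joined window. The number of peaks thus differed little between the lists, and the covered bases followed the order of the whole lists, which covered 70.3, 67.1, 72.8 and 65.3 Mb. Of the 109 regions, 63 were called in all 4 lists (57.8%, beside 40.4% of all regions) and 23 in a single list (21.1%, beside 32.4%). Peaks farther than 2.5 kb from any annotated transcript start (distal) numbered 63, 66, 70 and 67, or 67.7%, 71.7%, 72.9% and 69.1% of the peaks, close to the 71.2%, 70.9%, 72.1% and 70.9% of the whole lists. Promoter peaks near a start of the 10 genes themselves numbered 24, 20, 20 and 23, and 6, 6, 6 and 7 peaks lay near a start of another gene. Any annotated transcript start counted. Peaks in Elovl5 introns 21.47 to 26.38 kb downstream and in Elovl1 4.01 kb downstream are therefore among the promoter peaks of the 10 genes. The authors' fold enrichment (ChIP over background at the peak summit) had medians of 2.32, 2.72, 2.66 and 2.46 at the promoters of the 10 genes, where all promoter peaks of the lists had 3.34, 3.30, 3.42 and 3.32. In the region nearest the 5' end, the highest folds were 1.87 to 2.65 at Elovl3 and 2.33 to 4.64 at the other genes. At distal peaks the medians were 2.08, 2.02, 2.07 and 2.12, against 2.39, 2.39, 2.45 and 2.44.

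**Figure D1:**
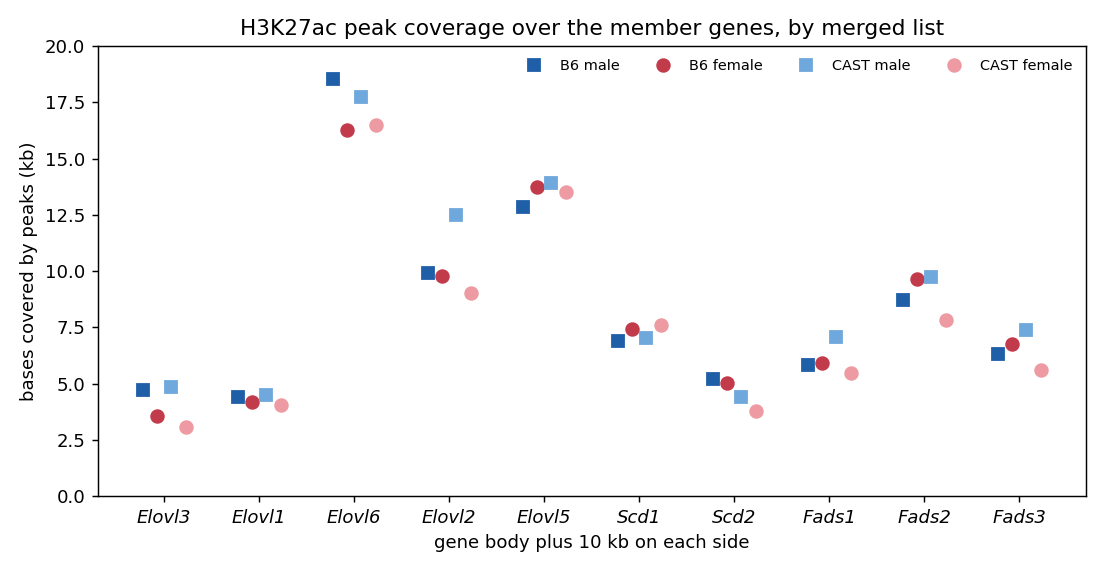
Bases covered by H3K27ac peaks (kb, vertical axis) over each gene body plus 10 kb on each side, 1 point per pooled list, squares for males and circles for females. Both male points lie above both female points for Elovl1, Elovl2, Elovl3 and Elovl6, with 4722 and 4853 bp over 3567 and 3096 bp at Elovl3, and the most bases are covered at Elovl6, which has the longest window.

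Elovl3, an elongase of saturated and monounsaturated very long chain fatty acids, gave the clearest sex difference of the 10. The gene (chr19:46206387-46210184, plus strand) carried 6 and 3 peaks in the male and female lists of B6, and 6 and 4 in those of CAST. The covered bases were 4722, 3567, 4853 and 3096, a male to female ratio of 1.32 in B6 and 1.57 in CAST. Among 15483 protein-coding genes with peaks in all lists these ratios stood at percentiles 90.0 and 93.4. A region is called male-only below when a strain's male list has a peak there and its female list has none. Elovl3 held 3 regions that were male-only in both strains. Of 22350 genes, a number that includes genes without peaks, 86 (0.385%) held as many or more. Of 17484 genes with a window at least as long, 85 (0.486%) did. A missing call says that the signal did not pass the authors' q-value limit of 0.05, not that the mark is absent, and in whole liver fewer cells with the mark and less mark per cell cannot be told apart.

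The first male-only region of Elovl3 (chr19:46200220-46200599) ended 5.79 kb upstream of the start, between genes, with male fold enrichments of 2.21 (B6) and 1.97 (CAST). The next (chr19:46205488-46205979) ended 0.41 kb upstream, with 1.81 and 1.99, and the summits of the B6 and CAST male peaks lay 2 bp apart, against 63 bp in the region before it and 167 bp in the one after. The last (chr19:46207116-46207547) lay in the first part of the gene, in an intron 0.73 kb downstream of the start, with 1.65 and 1.69. Their −log10 q-values were 7.43 and 4.56, 6.45 and 8.73, and 4.84 and 5.37 in B6 and CAST males. These calls stood at percentile 41.7 of the score in their lists or lower. With peaks up to 500 bp apart joined, none of the 3 stayed a region of its own, and with a −log10 q-value of at least 5 in every list, 1 remained male-only in both strains. The start itself (chr19:46206362-46206836) was called in all 4 lists, with 2.18 and 1.87 in B6 males and females and 2.35 and 2.65 in CAST. The folds were higher in the male list in B6 and in the female list in CAST, while the −log10 q-values, 14.8 and 3.78 in B6 and 17.93 and 12.71 in CAST, were higher in males of both strains. An upstream region (chr19:46198202-46199983) with folds of 4.02, 3.60, 3.78 and 3.37 was covered over 1758, 1232, 1723 and 848 bp, wider in the males of both strains. At the 3' end the order turned: the region chr19:46209642-46212066, which reaches from the Elovl3 3' UTR over coding exons of Pitx3, a homeodomain factor gene of lens and midbrain neurons on the opposite strand, had 2.66, 4.62, 3.56 and 4.93. It was higher in the females of both strains, with male to female ratios of 0.58 in B6 and 0.72 in CAST. Near its own start, Elovl3 was thus covered over 1188 and 1024 bp in males and 321 and 260 bp in females, and near an internal Pitx3 start over 1487 and 1753 bp in males and 2014 and 1988 bp in females.

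**Figure D2:**
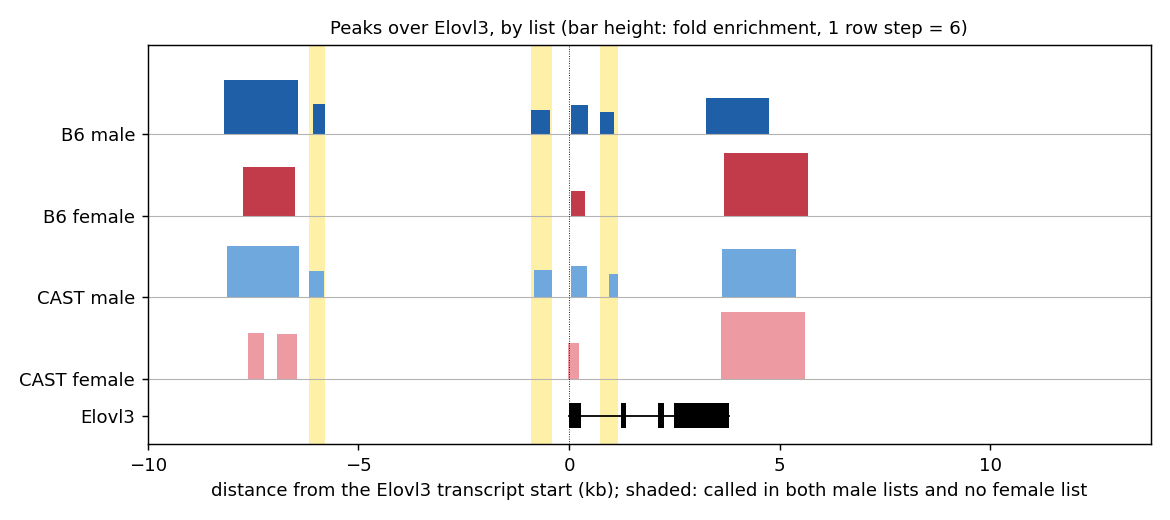
Peaks over Elovl3 in the 4 lists, drawn by distance from the transcript start (kb), with bar height giving fold enrichment and the exons in black at the bottom. The 3 shaded regions are called in both male lists and in no female list, and the block beyond the 3' end is higher in both female lists (4.62 and 4.93) than in the male lists (2.66 and 3.56).

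For each sex-specific region, 200 bases centred on the overlap of the B6 and CAST peaks of that sex are printed from the plus strand of mm9, since the lists of the sexes differed there. The overlap was shorter than the printed 200 bases at the Elovl3 intron (124 bp) and at the Elovl6 regions 31.1 kb (143 bp) and 85.55 kb (153 bp) downstream. Capitals mark any match on either strand to 6 motifs searched: the STAT letters TTCNNNGAA, the NF-Y letters CCAAT, the SREBP letters TCACNCCAC, the E-box CACGTG, the nuclear receptor half-site AGGTCA and the HNF6 letters ATCAAT. The Elovl3 sequences were these.
Elovl3 5.79 kb upstream, chr19:46200342-46200541: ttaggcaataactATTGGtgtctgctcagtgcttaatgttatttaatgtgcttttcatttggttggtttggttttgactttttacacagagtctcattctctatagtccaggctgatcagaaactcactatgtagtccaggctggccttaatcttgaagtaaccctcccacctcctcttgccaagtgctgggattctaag
Elovl3 0.41 kb upstream, chr19:46205639-46205838: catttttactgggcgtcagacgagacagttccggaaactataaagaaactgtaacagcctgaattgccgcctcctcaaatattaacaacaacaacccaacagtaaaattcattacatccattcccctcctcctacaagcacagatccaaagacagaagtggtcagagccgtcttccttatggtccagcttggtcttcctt
Elovl3 intron 0.73 kb downstream, chr19:46207295-46207494: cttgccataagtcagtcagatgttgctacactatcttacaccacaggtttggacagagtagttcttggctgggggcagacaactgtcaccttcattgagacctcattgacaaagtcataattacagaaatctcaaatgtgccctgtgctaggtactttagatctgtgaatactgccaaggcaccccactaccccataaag

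The NF-Y letters stood at 1 place in the Elovl3 region 5.79 kb upstream, and no match to the other letters was found in these windows. The NF-Y letters occur in 22.1% of the central 200 bases of all 119348 regions. STAT letters occur in 6.20% of those regions and SREBP letters in 0.769%. A match is a description of letters and not a binding site.

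Elovl6, which lengthens palmitate to stearate, had the most covered bases of the 10 genes and the longest window, 126.1 kb (chr3:129235304-129341413, plus strand). As a share of the window its coverage was 14.7%, 12.9%, 14.1% and 13.1%, in the lower part of the 10, where Scd1 had 20.7% to 22.8%. It held 19, 20, 20 and 23 peaks and 18534, 16274, 17738 and 16474 covered bases, a male to female ratio of 1.14 in B6 and 1.08 in CAST. Most of this lay inside the gene: distal peaks covered 15830, 13496, 14942 and 13804 bp. The start region (chr3:129234573-129237538) had folds of 3.10, 2.88, 3.85 and 3.49. Elovl6 held 2 regions that were male-only in both strains, a number that 357 genes (1.6%) matched or passed. Of 2226.0 genes with a window at least as long, 183.0 (8.22%) did. That 5.43 kb upstream (chr3:129229403-129229878) had male folds of 1.67 (B6) and 1.75 (CAST), and the summits there lay 334 bp apart. The intronic region 31.1 kb downstream of the start (chr3:129266403-129267104) had 1.58 and 1.92. The reverse pattern was found once among the 109 regions, in an intron 85.55 kb downstream (chr3:129320851-129321208), where B6 females had 1.91 and CAST females 2.09 and no male list had a peak. The −log10 q-values of the male-only regions were 3.65 and 2.78, and 4.25 and 9.68, so neither reached 5 in both strains. By score, the 3 regions stood at percentiles 11.7 and 4.9, 15.9 and 45.1, and 15.3 and 14.6 of their B6 and CAST lists. In the 200 bases at the overlap of the peaks, no motif letters were found in any of the 3.
Elovl6 5.43 kb upstream, male, chr3:129229494-129229693: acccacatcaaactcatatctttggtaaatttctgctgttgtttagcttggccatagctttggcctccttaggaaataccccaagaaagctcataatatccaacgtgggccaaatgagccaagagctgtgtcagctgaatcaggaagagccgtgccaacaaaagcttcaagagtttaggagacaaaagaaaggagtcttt
Elovl6 intron 31.1 kb downstream, male, chr3:129266461-129266660: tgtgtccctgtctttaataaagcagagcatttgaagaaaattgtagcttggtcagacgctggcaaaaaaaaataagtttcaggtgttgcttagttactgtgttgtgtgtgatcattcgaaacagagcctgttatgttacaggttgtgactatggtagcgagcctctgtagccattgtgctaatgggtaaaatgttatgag
Elovl6 intron 85.55 kb downstream, female, chr3:129320943-129321142: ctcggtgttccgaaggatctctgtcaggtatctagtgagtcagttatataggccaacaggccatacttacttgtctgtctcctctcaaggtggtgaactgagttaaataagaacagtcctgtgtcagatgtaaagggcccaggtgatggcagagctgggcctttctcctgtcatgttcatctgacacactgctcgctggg

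Elovl1, an elongase of saturated very long chain fatty acids, had 3 peaks in every list (chr4:118100698-118105558, plus strand). Covered bases were 4388, 4182, 4484 and 4073. Its start region (chr4:118100077-118102798) had folds of 3.42, 4.64, 3.66 and 4.04, higher in females of both strains, with male to female ratios of 0.74 and 0.90. Its window held no distal peak in any list, and 1 of its 3 regions lies over Cdc20, a neighbouring cell cycle gene.

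Elovl2 and Elovl5 lengthen polyunsaturated fatty acids, Elovl2 acting on the longer chains. Elovl2 (chr13:41277864-41315774, minus strand) held 12, 9, 15 and 14 peaks and 9917, 9793, 12507 and 9013 covered bases. The CAST male list stood above the other 3, and the male to female ratio was 1.01 in B6 and 1.39 in CAST. The region at its start (chr13:41314222-41315733) had folds of 3.15, 3.54, 4.02 and 3.57. Elovl5 (chr9:77765171-77832326, plus strand) held 18, 22, 18 and 19 peaks and 12868, 13733, 13892 and 13493 covered bases. Its strongest peak lay 4.78 kb upstream, between genes (chr9:77757462-77760389), with folds of 4.98, 4.73, 6.18 and 5.35, above those of the start region (chr9:77765219-77767139) with 3.80, 4.14, 3.78 and 3.98. The Elovl5 start call was wider in females, at 1191, 1890, 1061 and 1513 bp, with ratios of 0.63 and 0.70. Neither gene held a region that was sex-specific in both strains.

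The stearoyl-CoA desaturases lie together on chromosome 19, and their male to female ratios of covered bases fell on opposite sides of 1. Scd1, the main hepatic form (chr19:44468941-44482199, minus strand), held 8, 8, 7 and 6 peaks and 6879, 7448, 7031 and 7585 covered bases. It was the only gene of the 10 with fewer covered bases in the males of both strains, with ratios of 0.92 and 0.93, which are small. Its start region (chr19:44479967-44483258), the widest of the 10 by joined span but not by called bases in every list, had folds of 3.18, 2.99, 4.28 and 3.73. The strongest Scd1 peak lay beyond the 3' end, 17.43 kb from the start (chr19:44462018-44464771), with 3.74, 4.58, 5.20 and 4.27. Scd2, better known from brain and the developing liver (chr19:44368166-44381354, plus strand), held 4, 3, 3 and 5 peaks and 5219, 5022, 4429 and 3797 covered bases, ratios of 1.04 and 1.17. Its start region (chr19:44367451-44369496) had 3.30, 2.81, 2.99 and 2.65, higher in males of both strains by factors of 1.17 and 1.13. A distal region 20.27 kb from the Scd2 start (chr19:44388439-44390247) had 4.24 and 2.79 in the B6 sexes and 4.15 and 3.88 in the CAST sexes, so that the B6 female list was low and the other 3 were alike. The ratio was 1.52 in B6. Scd2 also had the lowest CAST to B6 ratio of covered bases, 0.85 in males and 0.76 in females.

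The FADS genes sit side by side on chromosome 19, and the windows of Fads2 and Fads3 overlap and share 4 regions. Fads1, the delta-5 desaturase (chr19:10257378-10271360, plus strand), held 6, 7, 7 and 6 peaks and 5814, 5896, 7053 and 5469 covered bases. Its start region (chr19:10256770-10259257) had folds of 3.74, 3.65, 4.22 and 3.92. The highest fold in the Fads1 window, 8.33, 8.54, 8.51 and 7.78, belongs to the shared start of Fen1, a flap endonuclease gene, and 1810006K21Rik (chr19:10278002-10279528), and not to Fads1. Fads2, the delta-6 desaturase (chr19:10138654-10175993, minus strand), held 13, 13, 13 and 12 peaks and 8714, 9637, 9722 and 7847 covered bases. Its start region (chr19:10174658-10176960) had 3.09, 3.15, 3.50 and 3.39. An intronic Fads2 region 28.15 kb from the start (chr19:10147403-10147839) was male-only in both strains, with male folds of 1.84 (B6) and 1.74 (CAST) and −log10 q-values of 6.94 and 6.25. The 200 bases at the overlap of the male peaks hold 1 match to the NF-Y letters.
Fads2 intron 28.15 kb downstream, male, chr19:10147584-10147783: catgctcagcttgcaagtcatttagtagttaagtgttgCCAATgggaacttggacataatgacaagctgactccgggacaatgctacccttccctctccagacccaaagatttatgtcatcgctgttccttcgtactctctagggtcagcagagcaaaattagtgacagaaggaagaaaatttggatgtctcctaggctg

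Fads3, whose product introduces a double bond in sphingoid bases (chr19:10116038-10134161, plus strand), held 10, 9, 10 and 11 peaks and 6335, 6776, 7377 and 5592 covered bases. Its start region (chr19:10115523-10116866) had 2.33, 2.62, 3.08 and 2.92. A region 2.38 kb upstream (chr19:10113033-10113658) was called over 553 and 324 bp in the male and female lists of B6 and over 380 and 237 bp in those of CAST, wider in males of both. In CAST, all 3 FADS genes were covered more in males, with ratios of 1.29 for Fads1, 1.24 for Fads2 and 1.32 for Fads3. Of 15483 genes, 69.9% were covered more in CAST males, and the median ratio was 1.08. In B6 the ratios of the FADS genes were 0.99, 0.90 and 0.93, on the other side of 1, beside a median of 1.03 over all genes. The FADS genes therefore did not share a sex difference between the strains. The regions common to Fads2 and Fads3 enter both counts.

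Counted by gene, 5 of 10 had more covered bases in B6 males than in B6 females and 9 of 10 in CAST, beside 59.3% and 69.9% of 15483 genes. The 5 genes with more in males of both strains were Elovl1, Elovl2, Elovl3, Elovl6 and Scd2 (43.0% of all genes had this pattern), and Scd1 was the 1 gene with more in females of both (13.7%). None of the 10 reached a ratio of 1.5 in either direction in both strains (1.25% of all genes did so for males and 0.478% for females). The median ratio of the 10 was 1.00 in B6 and 1.20 in CAST, beside 1.03 and 1.08 over all genes. The highest fold in a window never differed 1.5 times between the sexes of a strain (0.672% of genes did in B6 and 1.18% in CAST), and ratios ran from 0.77 to 1.24. The highest peak can lie in different regions in males and females. At Elovl3 it was the upstream region in males (4.02 and 3.78) and the Pitx3 region in females (4.62 and 4.93). The 0.77 is that of Elovl3 in CAST. By covered bases, no ratio of the 10 genes reached 1.5 in B6, and in CAST that of Elovl3 alone did.

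Counted by region, 15 of 95 regions called in B6 were male-only and 13 female-only, against 17.4% and 17.5% of all regions called in B6. In CAST, 18 of 95 were male-only and 5 female-only, against 21.5% and 14.1%. In both strains together, 6 of 109 regions were male-only (3 at Elovl3, 2 at Elovl6, 1 at Fads2) and 1 was female-only, beside 2.35% and 1.23% of all regions. With a −log10 q-value of at least 5 these counts were 2 and 0. Joining of peaks that lay within 500 bp left 3 male-only regions. Genes with at least 1 such male-only region were 3 of 10, beside 8.80% of all genes. This share rises with window length, and among 6220 genes with a window at least as long as that of Fads2 it was 19.4%. Another 3 of 109 regions were called in 1 sex of B6 and in the other sex of CAST, beside 2.58%. The 6 male-only regions had folds between 1.58 and 2.21, all below the median fold of their lists. The female-only region had 1.91 and 2.09, so by these calls no strongly enriched region of these genes was specific to a sex in both strains. Calls and summit folds of pooled lists are not a comparison of read counts between livers. By such a comparison, the study reported male-biased H3K27ac regions near Elovl3 in both strains.

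Among the 63 regions called in all lists, the male to female ratio of fold enrichment had a median of 1.03 in B6 and 1.03 in CAST, with ranges of 0.58 to 1.52 and 0.72 to 1.40. Over all regions called in all lists the medians were 0.99 and 1.06, and the 5th to 95th percentiles were 0.79 to 1.27 and 0.83 to 1.35. No region was 1.5 times higher in males of both strains (0.0974% of all such regions were) or in females of both strains (0.0186%). In B6, 2 of 63 passed 1.5 in either direction, the 3' region of Elovl3 (0.58) and the distal region of Scd2 (1.52), beside 1.12% of all, and in CAST 0 of 63 did, beside 1.68%. The fold was higher in males of both strains at 21 of the 63 regions and in females of both at 10, beside 32.2% and 18.3% of all such regions. By width, 1 region was called 1.5 times wider in males of both strains, that 2.38 kb upstream of Fads3 (2.67% of all regions), and 1 in females of both, in an Elovl6 intron 40.97 kb from the start (0.961%), called over 495, 960, 229 and 419 bp.

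**Figure D3:**
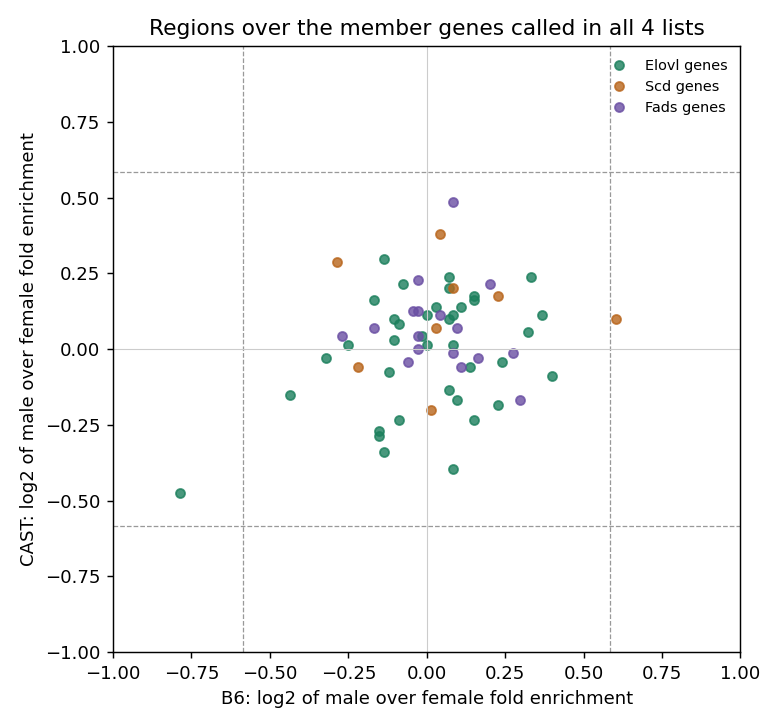
Male to female ratio of fold enrichment (log2) in B6 (horizontal) and CAST (vertical) for the 63 regions called in all 4 lists, with dashed lines at 1.5-fold. Points gather around 0, the lowest at the left is the 3' region of Elovl3 (ratios 0.58 and 0.72), and none lies beyond 1.5-fold in both strains in the same direction.

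The strains were compared over the same regions. Regions called in both B6 lists and in neither CAST list numbered 2 of 109, beside 4.17% of all, and the reverse 3 of 109, beside 6.15%. All 5 were intronic and distal, at Elovl2 or Elovl6. In Elovl2 the region 9.09 kb from the start (chr13:41306082-41306682) had 1.76 in B6 males and 1.54 in B6 females. Regions 3.83 kb (chr13:41311495-41311939) and 15.36 kb (chr13:41299333-41300413) from the start were called in CAST alone, with 1.51 and 1.78, and 1.81 and 2.15, in males and females. In Elovl6 a region 73.63 kb from the start (chr3:129308932-129309858) had 2.44 and 2.70 in the B6 lists, and 1 at 55.33 kb (chr3:129290634-129291303) had 1.74 and 1.57 in the CAST lists. By covered bases, none of the 10 genes differed 1.5 times between the strains in both sexes (4.29% of all genes were higher in CAST and 2.67% in B6). The median CAST to B6 ratio of the 10 was 1.05 in males and 0.92 in females, beside 1.01 and 0.97 over all genes. Because CAST peaks were placed through a CAST genome and carried over to mm9, a sequence missing from CAST and a missing mark cannot be told apart at the 2 regions called in B6 alone.

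**Figure D4:**
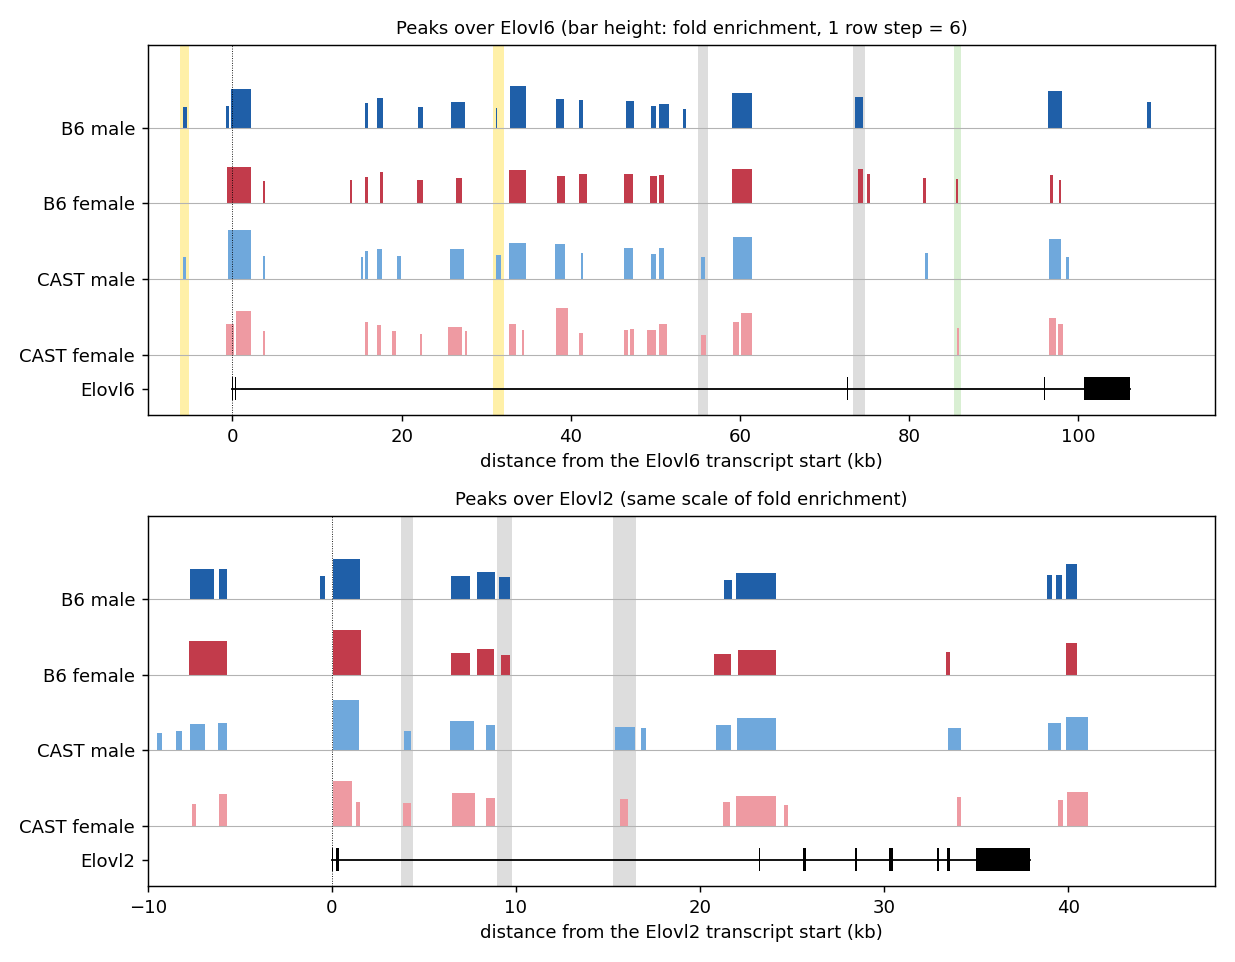
Peaks over Elovl6 (top) and Elovl2 (bottom) by distance from the transcript start (kb), bar height giving fold enrichment on 1 scale. Yellow marks regions called in males of both strains alone (5.43 kb upstream and 31.1 kb downstream of the Elovl6 start), green the region called in females alone (85.55 kb), and grey the regions called in a single strain, 2 at Elovl6 and 3 at Elovl2.

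The calls at the starts separated Elovl3 from the other 9 genes. The region over the Elovl3 start was called over 400, 321, 372 and 260 bp, where the other 9 had between 786 and 2976 bp. Of 9809 genes with a region over the 5' end in all 4 lists, 0.194% had a widest call no wider than that of Elovl3, and the median of the widest call was 1725 bp. The male-only calls on both sides of the Elovl3 start are separate regions and are not in these widths. Elovl3 also had the lowest fold enrichment at the start in 3 lists (2.18, 1.87 and 2.35 in B6 males, B6 females and CAST males), and in CAST females it equalled Scd2 at 2.65. The sexes' ratio of fold at the starts ran from 0.74 (Elovl1 in B6) to 1.17.

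**Figure D5:**
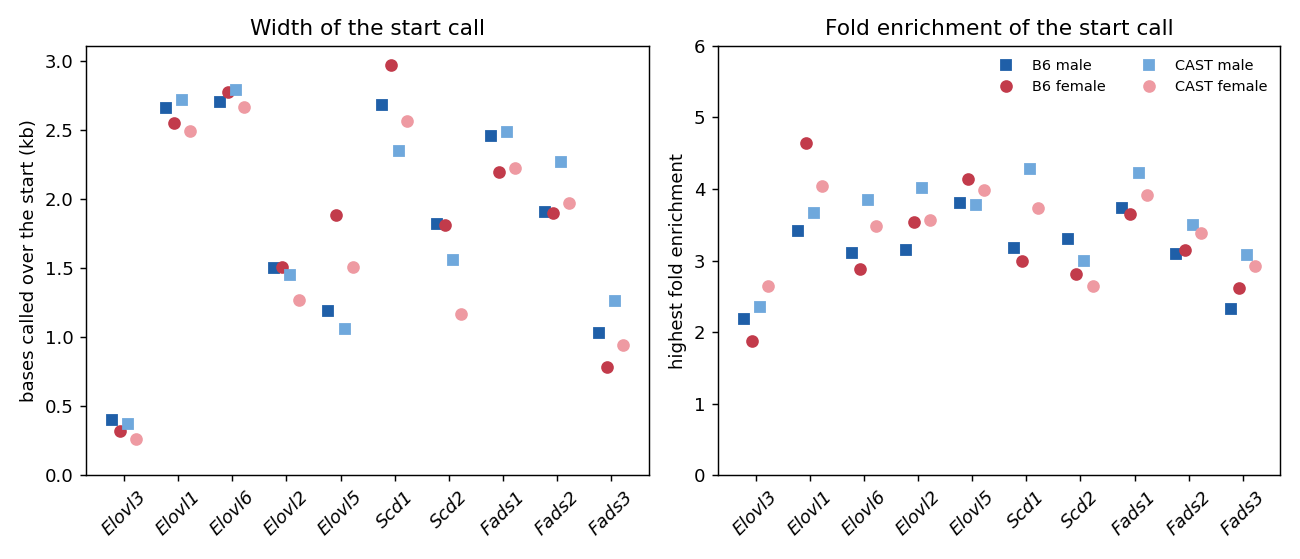
Width of the peak calls in the region nearest each gene's start (left, kb) and their highest fold enrichment (right), 1 point per pooled list. Elovl3 has the narrowest call in every list (260 to 400 bp), and the lowest fold enrichment in each list but that of CAST females, where it equals Scd2 (2.65).

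In the 250 bases before the starts, searched for 9 of the genes, the NF-Y letters were found in 5 (Elovl1, Elovl5, Scd1, Fads1 and Fads3), beside 35.0% of all 22350 genes. The nuclear receptor half-site letters were found in Elovl6 and Scd2 (12.6% of all), the E-box in Elovl5 (6.52%) and the HNF6 letters in Fads1 (6.55%). The STAT and SREBP letters were found in 0 of 9, beside 6.83% and 1.03%. For SREBP only 1 spelling was searched, and no match says only that these letters are not in this window.

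The genes whose coverage over the 4 lists was most like that of Elovl3, by Euclidean distance of log2(covered bp + 100) and more than 100 kb away from it, were Ints2, Mycl1, Tbc1d22b, Pyroxd2 and Ttyh3. The distances ran from 0.137 to 0.187 over 4 values, so the likeness is one of size and male to female order alone. Ints2 had 4747, 3537, 4719 and 3399 covered bases.

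A list of 36 other genes of fatty acid synthesis, elongation and its regulation was read in the same way. Peaks lay in the windows of 34 of them in all 4 lists. Scd4 had none in any list and Elovl4, an elongase of retina and skin, had 427 bp in B6 females alone. More bases were covered in males of both strains for 16 of the 36 and in females of both for 3, beside the 43.0% and 13.7% of all genes above, and the median male to female ratios were 1.01 in B6 and 1.10 in CAST. No gene of the list differed 1.5 times by sex in both strains. By strain, Thrsp, a lipogenic nuclear protein gene, was covered more in CAST, with 3102, 2726, 5133 and 4713 bp, and Elovl7 more in B6, with 1708, 1710, 656 and 301 bp, beside the 4.29% and 2.67% of all genes that passed these limits. A male-only region in both strains was held by 9 of the 36 genes, beside the 8.80% of all genes above. That share rises with window length and was not matched to the windows of the 36. Among the 9 was Mlxipl, the gene of the carbohydrate response factor ChREBP, with 1. Acsl1 and Acsl5, which activate fatty acids to acyl-CoA, held 2 each.

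Marker genes were read at their starts to check the tissue. All 5 hepatocyte genes (Alb, Apoa1, Ttr, Fga and Cyp2e1) were called in all 4 lists, at percentiles of 47.5 to 84.7, and 0 of 5 genes of other organs in any. Of other liver cells, 2 of 3 endothelial, 1 of 2 stellate and 2 of 3 cholangiocyte genes were called in all lists, and the stellate gene Lrat was called in CAST females alone, at percentile 15.8. Of 3 Kupffer cell genes, Clec4f was called in B6 females alone. Vsig4 and Cd5l were not called. A peak at the Xist start was found in both female lists and in neither male list, and 39 peaks on the Y chromosome were found in the B6 male list alone. No peak number was missing from the authors' running numbering in or next to the windows in any list. Read depth of the livers was not analysed here, and precision of a fold enrichment cannot be derived from the lists.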

How the data were processed

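ChIP-seq for H3K27ac was done on livers of 4 groups, and the lists pool the 5 livers of each. As the study's methods state, reads were mapped uniquely with Bowtie2, B6 to mm9 and CAST to a CAST genome whose coordinates were then converted to mm9, and peaks were called with MACS2 against input, with blacklisted regions removed. The peak names in each list carry the code of 1 library, and the lists were taken as merged because the study says so. For each peak the authors deposited a score, a fold enrichment (a ratio), and the −log10 of the p-value and of the q-value. The score was used as a percentile within its list, with ties broken by q-value and fold, and the p-value was not used.

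Peaks of the autosomes and X were used, with Python 3.11.15, pandas 2.3.3 and numpy 2.4.6. Peaks overlapping by 1 bp were joined to regions, and a peak counted for a gene when it overlapped the window by 1 bp. Promoter peaks lay within 2.5 kb of any GENCODE vM1 start. The start region is that nearest the 5' end of the gene. At Elovl2 and Elovl5 it does not hold that end and begins 41 and 48 bp downstream of it. Calls between lists used a factor of 1.5, without a test. The genome was NCBIM37, the build of the files. The interval code was tested on simulated peaks. All 10 genes are named. Start regions were described, with regions specific to a sex in both strains or to a strain in both sexes. So was any region differing 1.5 times in fold by sex in both strains. Genes, lists and motifs were chosen with earlier results of these data known. Regions outside this rule (upstream of Elovl3, Elovl5 and Fads3, beyond the 3' ends of Elovl3, Scd1, Scd2 and Fads1, and 40.97 kb into Elovl6) were named after their values were seen, as were Elovl4, Scd4, Mlxipl, Acsl1 and Acsl5. The regions flagged below, called in 1 sex of B6 and in the other sex of CAST, also lie outside it. Alternatives were other flanks, a stricter q-value, lists of equal length, joining of nearby peaks, stricter overlap, other promoter limits and rescaled folds. The bases before the Elovl3 start are not reported here.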

Additional observations from a re-analysis of the deposited data

Results flagged for a closer look

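At 3 of the 109 regions the sexes went opposite ways in the strains, each called in 1 sex of B6 and in the other sex of CAST. The intronic Elovl5 region 52.97 kb from the start had a fold enrichment of 2.43 in B6 males and 2.35 in CAST females. The intronic Elovl6 region 81.59 kb from the start had 1.99 in B6 females and 2.05 in CAST males. The region upstream of Fads1 had 1.83 in B6 females and 1.79 in CAST males. The difference between the strains was not tested, since each list pools its livers.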

How the results depend on the processing

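No paired analysis was possible because each list pools the 5 livers of a group. Counts of peaks per list, of distal peaks, of genes with more covered bases in males and all 20 ratios of the highest fold stayed within 1.5 times of the reported values under the alternatives tried for them. With the gene body alone, covered bases were 51420, 50449, 54070 and 46724 in the male and female lists of B6 and of CAST, over shorter windows. The sex-specific calls depended on the processing. With peaks up to 500 bp apart joined, B6 male-only regions were 8, CAST male-only 9, CAST female-only 3, male-only in both strains 3 and the Elovl3 regions among these 0, since they then join neighbours called in females. With a −log10 q-value of at least 5, B6 female-only regions were 8, CAST female-only 3, male-only in both strains 2, female-only in both 0 and the Elovl3 regions 1. When sharing required an overlap of 50% of both peaks, 32 and 37 peaks of B6 and CAST males and 31 and 38 of the females had no partner, and 3 were female-only in both strains. Lists shortened to equal length changed none of the values by over 1.5 times, though CAST male-only regions, from the longest list, fell from 18 to 12. The lists hold no depth per liver, which limits every value here.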
